A study of Mus musculus with 7 samples.

Results

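The miR-23/27/24 clusters are a pair of short stretches of the mouse genome that each encode 3 miRNA hairpins. Their guide products, chosen here by name, are mmu-miR-23a, mmu-miR-23b, mmu-miR-27a, mmu-miR-27b and mmu-miR-24, written without the species prefix below, which made up 5 of the 756 distinct mature miRNA sequences measured in mouse hippocampus. All 5 were detected in every library, and all 5 passed the filter for testing. The study asked whether inhibition of nuclear protein phosphatase 1 (PP1) and training on an object memory task change hippocampal miRNAs. The hippocampi came from adult C57BL/6 mice of 3 to 5 months and were pooled for each of 7 small RNA libraries. By their labels, 1 library came from non-trained control mice, 1 from non-trained NIPP1* mice, 3 from trained control mice and 2 from trained NIPP1* mice. NIPP1* mice carry a fragment of the nuclear inhibitor of PP1, under a tetO promoter that the transactivator rtTA2 switches on when doxycycline is fed. The transactivator is driven by the CaMKIIalpha promoter, which is active in excitatory forebrain neurons, while the hippocampal tissue also holds glia and vessels. Controls, labelled wildtype, were littermates, and the methods do not state whether they were fed doxycycline. Trained mice explored objects in an object recognition task, and non-trained mice were placed in the same arena without objects.

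The members of a cluster are cut from a common primary transcript, and each cluster is a copy of the other in gene order: miR-23, miR-27 and miR-24. A miRNA recognises messenger RNAs mainly through its seed, bases 2 to 8, and the a and b forms of miR-23 and of miR-27 are known to share targets. The family is known from blood vessels, where it acts in angiogenesis, and from immune cells, muscle and fat. miR-23 is known to target glutaminase, the enzyme that makes glutamate from glutamine, miR-27 targets the adipogenic receptor PPAR gamma, and miR-24 targets proapoptotic genes in neurons. Reads of bulk tissue do not show which cells a miRNA came from, and fewer cells of a type and less miRNA per cell cannot be told apart.

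The mature sequences are shown because seed sharing and the identity of copies decide which products can be counted apart. RefSeq (GRCm38.p6) held 4 of the 5 guide sequences by name, and capitals mark the seed.
mmu-miR-24-3p: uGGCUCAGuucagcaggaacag
mmu-miR-27a-3p: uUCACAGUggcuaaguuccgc
mmu-miR-27b-3p: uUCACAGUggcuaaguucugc
mmu-miR-23a-3p: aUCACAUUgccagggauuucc
The forms of miR-27 had 20 of 21 bases in common and differed by C19U, counted from the 5′ end of miR-27a. That substitution lies outside the seed, so the 2 products have the same seed and were told apart by a single base near the 3′ end. The seeds of miR-23a and miR-27 shared their first 5 bases, while the miR-24 seed was unrelated in sequence. In the RefSeq set, no mature miRNA other than miR-27a and miR-27b had the miR-27 seed, while 4 others (miR-5124b, miR-6369, miR-6410 and miR-6413) had the miR-24 seed.

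The guide products came from 6 loci in the coordinates of the mm9 (NCBI37) build, all on the plus strand. On chromosome 8, miR-23a lay at 86732462 to 86732482, miR-27a at 86732626 to 86732646 and one copy of miR-24 at 86732774 to 86732795. The measured products of this cluster spanned 370 bp outside any annotated host gene, and the nearest protein-coding gene, Zswim4, lay 1782 bp away on the opposite strand. On chromosome 13, miR-23b lay at 63401837 to 63401857, miR-27b at 63402068 to 63402088 and the other copy of miR-24 at 63402559 to 63402580. This cluster spanned 781 bp and lay in an intron of 2010111I01Rik (63066253 to 63427404), on the strand of that gene and overlapping 0 of its exons. Both copies of miR-24 give the same mature sequence, so the reads of miR-24 cannot be assigned to either cluster.

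The libraries held between 7285290 and 10017200 miRNA reads, and levels are given as RPM, the percent of miRNA reads times 10000. On this scale 1 read was worth 0.0998 to 0.137 RPM. The deposited comparison tables assign the trained libraries to genotypes the other way round from the labels. Over 319 miRNAs, the trained control mean of the tables was rebuilt from the libraries labelled trained NIPP1* with weights of 58.1% and 41.8%, and the trained NIPP1* mean from the 3 libraries labelled trained control with weights of 31.9% to 35.7%. The labels were followed below, and each direction between genotypes after training rests on them. The ranges of red blood cell and oligodendrocyte miRNAs did not overlap between the trained groups, and their values are given beside the comparisons they touch.

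miR-24 was the most abundant guide by a wide margin, and the levels of the 5 products kept a single order. mmu-miR-24, known for restraining cell death and the cell cycle, was at 4305 RPM in the non-trained control library, 4397 in non-trained NIPP1*, 3982, 4131 and 4161 in trained controls and 4017 and 4310 in trained NIPP1*. Its mean was 4186 ± 157 RPM (SD, n = 7), which ranked 36 among all sequences, and its highest library exceeded its lowest 1.10-fold. The trained groups overlapped, and both non-trained libraries lay above the mean of either trained group.

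mmu-miR-27b, the major form of miR-27, came next in level. Its level was 1126 RPM in non-trained control, 1056 in non-trained NIPP1*, 965.9, 994.7 and 1018 in trained controls and 1134 and 1261 in trained NIPP1*. The mean of 1079 ± 102 RPM (SD, n = 7) ranked 64, and the trained control libraries were the 3 lowest of the 7. mmu-miR-27a, its sister with the same seed, was at 56.58 RPM in non-trained control, 59.09 in non-trained NIPP1*, 58.9, 58.43 and 58.97 in trained controls and 65.06 and 73.27 in trained NIPP1*. It was the least abundant guide, with a mean of 61.5 ± 5.83 RPM (SD, n = 7) and rank 210, and both trained NIPP1* libraries were the highest.

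mmu-miR-23b was at 261.6 RPM in non-trained control, 293.1 in non-trained NIPP1*, 269.5, 277.9 and 247.8 in trained controls and 285.7 and 328.3 in trained NIPP1*. Its mean was 281 ± 25.9 RPM (SD, n = 7), and the highest library was trained NIPP1* replicate 2, the deepest of the series. mmu-miR-23a was at 172.5 RPM in non-trained control, 200.4 in non-trained NIPP1*, 186.6, 195.6 and 184.3 in trained controls and 200.9 and 204.5 in trained NIPP1*. Its mean was 192 ± 11.5 RPM (SD, n = 7), with the non-trained control library lowest. The products are 21 or 22 nt long, so no correction for length was made when levels of different miRNAs were compared. Differences between sequences in how well they are captured were not corrected either, so orders and ratios between miRNAs are those of reads.

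**Figure D1:**
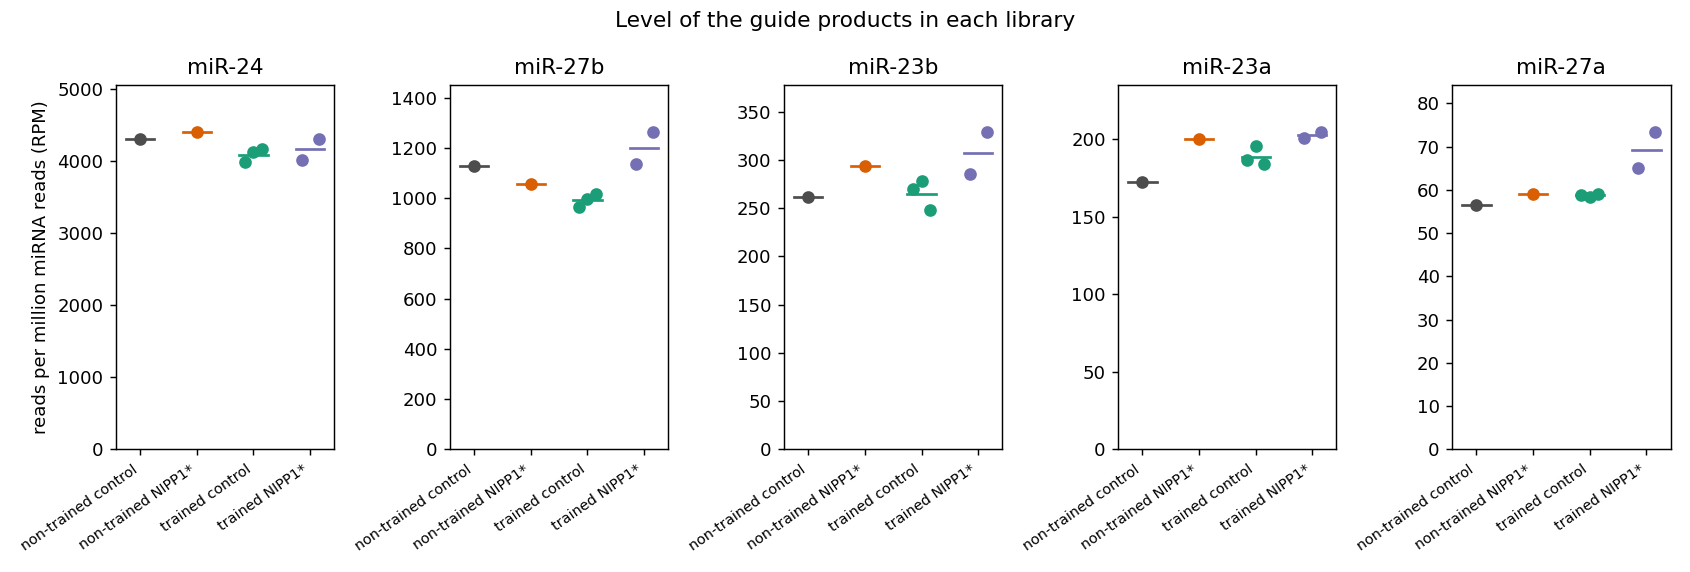
Level of each guide product in RPM (vertical axes from 0, a different scale in each panel). Points are libraries and horizontal lines are group means for the 4 labelled groups, and in the panels of miR-23a, miR-23b, miR-27a and miR-27b both trained NIPP1* libraries lie above all 3 trained control libraries, which under TMM scaling held for miR-27a and miR-27b alone.

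The order miR-24, miR-27b, miR-23b, miR-23a, miR-27a held in 7 of 7 libraries. The ranges of neighbours in this order did not overlap, since the lowest miR-23b level (247.8 RPM) was above the highest miR-23a level (204.5 RPM), the closest pair. Together the guides took 0.546% (trained control replicate 1) to 0.618% (trained NIPP1* replicate 2) of all miRNA reads. miR-24 alone made up 69.8% to 73.4% of that sum, with the 2 lowest shares, 69.8% and 70.4%, in the trained NIPP1* libraries.

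For both families with separable forms, the product of the chromosome 13 cluster was the more abundant. The ratio of miR-27b to miR-27a ranged from 16.4 to 19.9 with a mean of 17.6, and that of miR-23b to miR-23a from 1.34 to 1.61 with a mean of 1.46 (n = 7). Within the chromosome 8 cluster the ratio of miR-23a to miR-27a was 2.79 to 3.39, while within the chromosome 13 cluster miR-27b exceeded miR-23b by 3.58-fold to 4.30-fold. The order of miR-23 and miR-27 was therefore opposite in the 2 clusters, in every library. On the log2 scale the SD over libraries was 0.088 for miR-27b over miR-27a and 0.081 for miR-23b over miR-23a, against 0.066 and 0.047 from counting error alone.

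**Figure D2:**
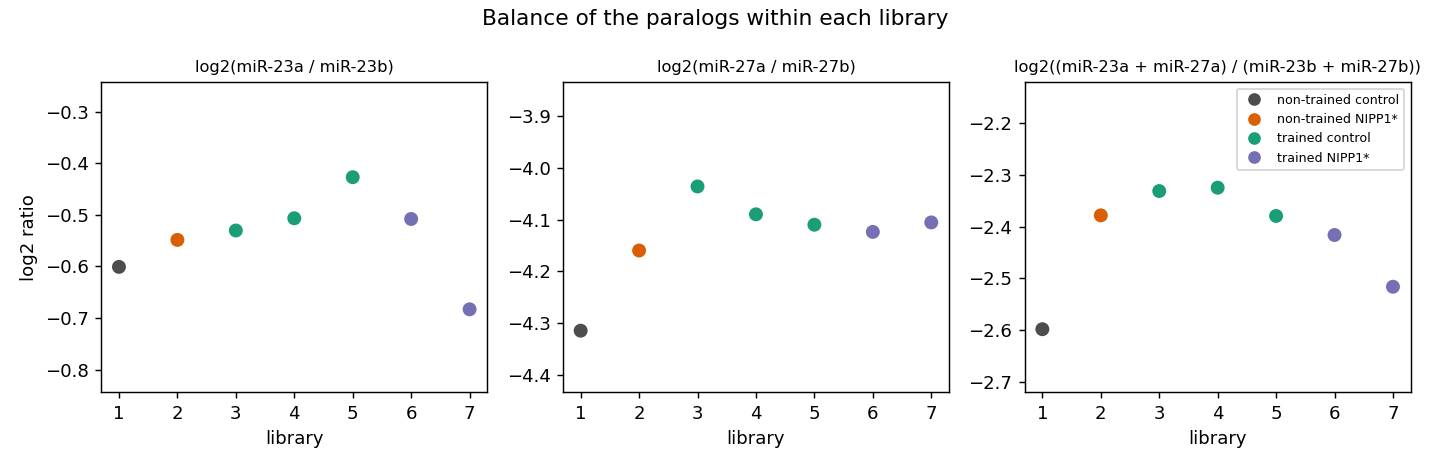
Log2 ratio of the chromosome 8 form to the chromosome 13 form of miR-23, of miR-27 and of their sums in each of the 7 libraries (points, coloured by labelled group, axes not from 0). In the miR-27 panel the trained libraries lie between -4.12 and -4.04, above both non-trained libraries at -4.31 and -4.16.

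The paralog ratios were compared between groups, since a ratio within a library does not depend on how libraries are scaled. The log2 ratio of miR-27a to miR-27b was -4.12 to -4.04 in the 5 trained libraries and -4.31 and -4.16 in the non-trained libraries, so the ranges did not overlap. The difference of 0.14 gave p = 0.0476 in a two-sided exact permutation test, the smallest p that 21 regroupings allow, and an adjusted p of 0.286 over 6 ratio tests. The difference was 0.067 without the non-trained control library and 0.22 without the non-trained NIPP1* library. For miR-23a over miR-23b the difference was 0.044 (exact permutation p = 0.524), and for the summed forms it was 0.095 (exact permutation p = 0.333). Between trained NIPP1* and trained control the differences were -0.036, -0.11 and -0.12 for miR-27, miR-23 and the sums. For miR-23, trained NIPP1* replicate 1 was at -0.51, within the trained control range of -0.53 to -0.43, and replicate 2 was at -0.68. Exact permutation p-values of the differences were 0.4, 0.2 and 0.1, and 10 regroupings allow none below 0.1. With these smallest p-values no ratio could have passed an adjusted threshold of 0.05, whatever its values.

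The opposite arm of each hairpin, the passenger strand that is mostly degraded, was nearly absent beside the guides. Pooled over the libraries, the opposite arm took 0.974% of the reads of the miR-27b hairpin (626 reads, exact binomial 95% interval 0.900 to 1.05%, which covers counting error only) and 0.768% of those of miR-27a (28 reads, 0.511 to 1.11%). It took 0.565% for miR-23b (94 reads, 0.457 to 0.692%) and 0.274% for miR-23a (31 reads, 0.186 to 0.389%). In every hairpin of miR-23 and miR-27 the opposite arm was the minor product in all 7 libraries.

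The opposite arms of the miR-24 hairpins differ in sequence and are shown because they alone separate the 2 loci. Capitals mark the seed.
mmu-miR-24-1-5p: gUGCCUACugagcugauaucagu
mmu-miR-24-2-5p: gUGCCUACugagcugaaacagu
Over all libraries 9 reads came from the chromosome 13 copy and 10 from the chromosome 8 copy, against 245899 reads of the guide. The 2 arms together made up 0.00773% of the reads of both hairpins, and 19 reads are too few to read a share of the loci from. A product from the opposite strand of the miR-24 loci, miR-3074-5p, had a mean of 0.721 RPM and was at 0.45 to 1.1 RPM in every library.

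Only the opposite arms of miR-23b and miR-27b passed the filter of 10 mean reads. The opposite arm of miR-27b was at 11.25 RPM in non-trained control, 11.77 in non-trained NIPP1*, 10.49, 9.46 and 8.44 in trained controls and 12.49 and 10.88 in trained NIPP1*. Both trained NIPP1* libraries exceeded the 3 trained controls, as in 18.7% of all miRNAs tested, and under TMM scaling the groups overlapped. Its log2 difference between trained NIPP1* and trained control was 0.29 (SE 0.19) with an adjusted p of 0.662 in limma. The opposite arm of miR-23b was at 1.12 RPM in non-trained control, 1.24 in non-trained NIPP1*, 1.22, 1.68 and 2.3 in trained controls and 1.51 and 2.1 in trained NIPP1*. Its trained groups overlapped, with a log2 difference of 0.062 (SE 0.30) and an adjusted p of 0.973 in limma.

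In the non-trained mice, miR-23a and miR-23b were higher in the NIPP1* library and miR-27b was lower, each by a small amount. The log2 ratio of NIPP1* to control was 0.22 for miR-23a (95% interval 0.11 to 0.32), 0.16 for miR-23b (0.081 to 0.25), 0.031 for miR-24 (0.0096 to 0.051), 0.063 for miR-27a (-0.12 to 0.25) and -0.093 for miR-27b (-0.13 to -0.051). These exact conditional binomial intervals cover counting error only, and with 1 library a group there is no test of genotype. Over 322 miRNAs with at least 100 mean reads the median size of the log2 ratio was 0.15. None of the members reached a log2 ratio of 1, which 0.932% of these miRNAs did. Libraries of the same trained group differed by up to 0.086 for miR-23a, 0.20 for miR-23b and 0.15 for miR-27b on the same scale. Of these 3, only miR-23a had a ratio above that gap. Each gap is the widest of only 4 pairs, and the share of all miRNAs exceeding theirs was not computed. In the same non-trained libraries the 6 leukocyte and microglia miRNAs listed below summed to 1296 RPM in control and 1654 in NIPP1*. The 2 oligodendrocyte miRNAs summed to 4808 and 3845 RPM, and the 4 blood vessel miRNAs to 14824 and 14791. The part of these cells in the member differences was not tested.

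No member passed the test for a change with training. In controls, the log2 difference of trained from non-trained libraries was -0.18 for miR-27b (SE 0.15), 0.13 for miR-23a (SE 0.16), 0.054 for miR-27a (SE 0.19), 0.017 for miR-23b (SE 0.18) and -0.074 for miR-24 (SE 0.12). In NIPP1* mice it was 0.22 for miR-27a (SE 0.20), 0.18 for miR-27b (SE 0.16), 0.063 for miR-23b (SE 0.19), 0.016 for miR-23a (SE 0.17) and -0.080 for miR-24 (SE 0.13). Without trained NIPP1* replicate 2 it was 0.14 for miR-27a, 0.10 for miR-27b, -0.037 for miR-23b, 0.0036 for miR-23a and -0.13 for miR-24. Without replicate 1 it was 0.31 for miR-27a, 0.26 for miR-27b, 0.16 for miR-23b, 0.029 for miR-23a and -0.029 for miR-24. In limma, 0 of 5 members passed an adjusted p of 0.05 and 0 an unadjusted p of 0.05 in either comparison. The smallest adjusted p was 0.712 in controls and 0.973 in NIPP1* mice. Of the 476 miRNAs tested, 0.0% passed the adjusted threshold in both, and 5.88% and 4.41% the unadjusted one. Leaving out 1 library moved these unadjusted shares to between 2.73% (without trained control replicate 2) and 22.3% (without trained control replicate 1), and to between 2.09% (without trained NIPP1* replicate 1) and 7.10% (without trained control replicate 1). DESeq2, which called 0.21% and 0.42% of all miRNAs, and edgeR, which called 0.0%, also called 0 members, adjusted or unadjusted.

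By the labels, miR-23a and miR-27a were above the non-trained library of their own genotype in 5 of 5 trained libraries, as 6.09% of all miRNAs were, and miR-24 was below it in 5 of 5, as 14.1% were. With TMM or DESeq2 size factors and the labels, miR-23a and miR-27a stayed above in 5 of 5, against 9.03% and 9.87% of all miRNAs, but miR-24 was below in 3 and 2 of 5 and its log2 difference in controls turned, to 0.018 and 0.021. With the grouping of the deposited tables, miR-23a and miR-27a were above in 2 of 5 and miR-24 was below in 4 of 5, while 5.04% of all miRNAs were above and 14.1% below in all trained libraries. Under that grouping with either rescaling, miR-27a was above in 5 of 5, against 10.7% of all miRNAs with TMM and 10.1% with DESeq2 size factors, and miR-23a in 4 of 5. miR-23b was above in 2 of 3 trained controls and 1 of 2 trained NIPP1* libraries by the labels, and in 4 of 5 trained libraries with TMM and 5 of 5 with DESeq2 size factors. Each of these counts compares trained libraries with the same single non-trained library per genotype.

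Blood vessel miRNAs were set beside these counts. The 4 of them (miR-126-3p, miR-126-5p, miR-143 and miR-145) summed to 14824 RPM in non-trained control and 14791 in non-trained NIPP1*, below each of the 5 trained libraries at 15486 to 18452. miR-143 and miR-145 were higher in every trained library than in either non-trained one, while miR-126-3p and miR-126-5p were not. Over both genotypes the log2 difference of trained from non-trained libraries was 0.33 for miR-143 and 0.39 for miR-145, each with a limma adjusted p of 0.873. The part of vessel cells in the miR-23a and miR-27a levels was not tested.

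miR-27b was below its non-trained library in 3 of 3 trained controls and above in 2 of 2 trained NIPP1* libraries. Of all miRNAs tested, 21.8% lay on opposite sides in the genotypes in this way or the reverse. With the grouping of the deposited tables miR-27b also lay on opposite sides, as 9.03% of all miRNAs did, but no longer when that grouping was combined with TMM or DESeq2 size factors. The difference of the training effects of miR-27b was 0.36 on the log2 scale (SE 0.21, limma adjusted p = 0.735). The oligodendrocyte miRNAs (miR-219-5p and miR-338-3p) lay on the same sides. Their sum, mostly miR-338-3p, was 4808 RPM in non-trained control against 2766 to 3299 in trained controls, and 3845 RPM in non-trained NIPP1* against 4123 and 4375 in trained NIPP1*. Their differences of training effects were 1.99 and 0.82 on the log2 scale, with limma adjusted p-values of 0.288 and 0.577. miR-124, known from neurons, also lay on the same sides, at 4085 RPM in non-trained control against 3637 to 3733 in trained controls and 4054 RPM in non-trained NIPP1* against 4091 and 5135 in trained NIPP1*. Its difference of training effects was 0.33, and that of miR-128, another neuronal miRNA, was -0.44, with limma adjusted p-values of 0.799 and 0.577. The red blood cell sum was 115.9 RPM in non-trained control against 125.5, 61.9 and 62.3 in trained controls, and 85.0 RPM in non-trained NIPP1* against 132.1 and 250.9 in trained NIPP1*. The differences of training effects were 2.60 for miR-144 and 1.58 for miR-451, with limma adjusted p-values of 0.577 and 0.696. The part of these cells in the miR-27b levels was not tested.

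**Figure D3:**
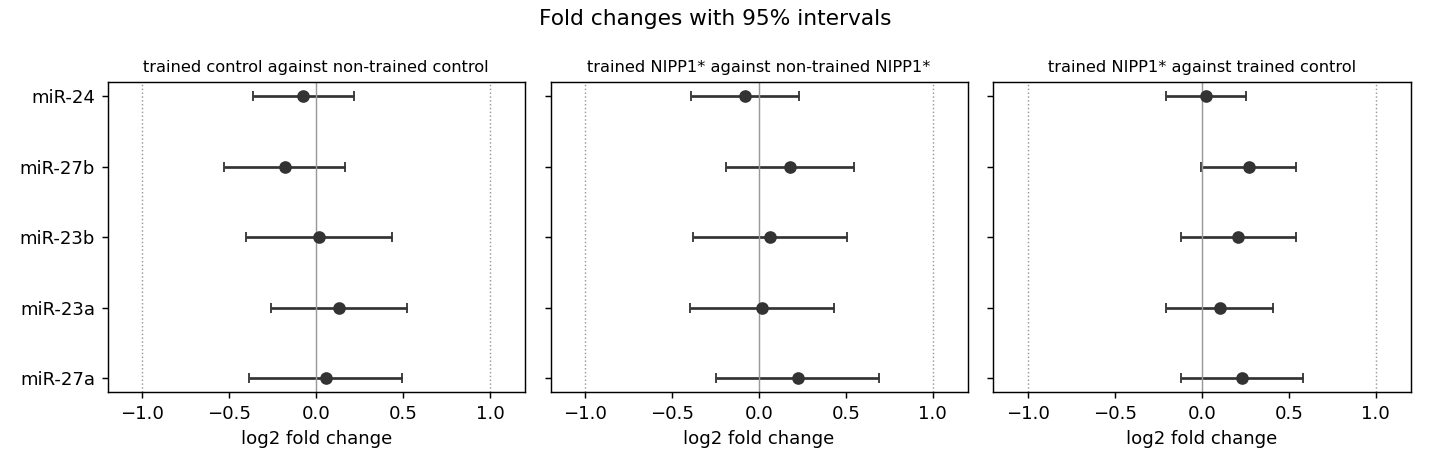
Log2 fold changes of the 5 guides with their 95% intervals from limma in 3 of the 6 tested comparisons (horizontal axis, log2 scale, with dotted lines at a change of 1). Every interval spans 0, and the intervals reach from -0.53 to 0.69.

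After training, all members but miR-24 were higher in NIPP1* than in control libraries without overlap. Trained controls averaged 993 ± 26.1 RPM for miR-27b, 58.8 ± 0.294 for miR-27a, 265.1 ± 15.5 for miR-23b, 188.8 ± 5.97 for miR-23a and 4091 ± 95.9 for miR-24 (SD, n = 3). The means of the trained NIPP1* libraries (n = 2) were 1198, 69.2, 307.0, 202.7 and 4164 RPM. The gap between the lowest NIPP1* and the highest control library was 11.4% for miR-27b and 10.3% for miR-27a, but only 2.81% for miR-23b and 2.71% for miR-23a. Of all miRNAs tested, 18.7% had both NIPP1* libraries above the controls, and 7.77% had both below. Under TMM scaling 2 members, miR-27a and miR-27b, did so against 12.0% of all miRNAs. Under DESeq2 size factors 4 members did, against 15.1%.

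None of these differences passed the test. The log2 difference of trained NIPP1* from trained control was 0.27 for miR-27b (SE 0.12, limma adjusted p = 0.639, 95% interval -0.0067 to 0.54). It was 0.23 for miR-27a (SE 0.15), 0.21 for miR-23b (SE 0.14), 0.10 for miR-23a (SE 0.13) and 0.025 for miR-24 (SE 0.098), with limma adjusted p-values of 0.662 to 0.973. Without trained NIPP1* replicate 2 it was 0.15 for miR-27a and 0.11 for miR-23b. In limma, 0 of 5 members passed either the adjusted or the unadjusted threshold, against 0.0% and 7.14% of all miRNAs. The share at the unadjusted threshold was 24.2% without trained control replicate 1 and 1.89% without trained NIPP1* replicate 2. The smallest unadjusted p of a member in limma was 0.0544, for miR-27b. That limma value was 0.0184 without a filter on low counts, 0.0480 with at least 100 mean reads and 0.0461 without trained control replicate 1, where the adjusted p was 0.600, 0.624 and 0.201. In those fits 53 of 756, 19 of 319 and 116 of 479 miRNAs passed the unadjusted threshold. edgeR (0.0% of all miRNAs called) and DESeq2 (0.21%) also called 0 members, adjusted or unadjusted. The SE comes from the spread of all miRNAs at a like level as well as from these libraries, and it is larger than the spread of the members within groups alone would give.

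Markers of other cell types were set beside this comparison, since the same libraries stood apart in them. The summed level of 2 of 3 red blood cell miRNAs found (miR-144 and miR-451) was 125.5, 61.9 and 62.3 RPM in trained controls and 132.1 and 250.9 in trained NIPP1*. For both oligodendrocyte miRNAs it was 2766 to 3299 RPM in trained controls and 4123 and 4375 in trained NIPP1*. That sum was mostly miR-338-3p, since miR-219-5p was at 9.085 to 26.7 RPM over the 7 libraries. In neither list did the trained groups overlap, and none of the 4 miRNAs passed the test (limma adjusted p of 0.331 for miR-219-5p, 0.435 for miR-338-3p and 0.639 for miR-144 and miR-451). The part of these cells in the higher miR-23 and miR-27 levels was not tested.

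The 4 blood vessel miRNAs summed to 15486, 17674 and 18452 RPM in trained controls and 16283 and 17204 in trained NIPP1*. The 6 leukocyte and microglia miRNAs summed to 1158 to 1654 RPM over the 7 libraries. Both lists overlapped between the trained groups. The miRNAs miR-9, miR-124 and miR-128, known from neurons, were present in every library, with sums of 181433 to 207845 RPM that were mostly miR-9. miR-124 was at 3671, 3733 and 3637 RPM in trained controls and 4091 and 5135 in trained NIPP1*, and miR-128 at 60475 to 71940 in trained controls and 58385 and 57695 in trained NIPP1*. miR-124 was thus higher and miR-128 lower in NIPP1* without overlap, with limma adjusted p-values of 0.639 and 0.662, while miR-9 overlapped. Their part in the member differences was not tested. Of the choroid plexus list, miR-204 was at 400.1 to 1154 RPM and miR-211 at 0 to 0.27 RPM. miR-448, also listed, was not found under that name. Its product miR-448-3p had an SD of log2 level of 1.19 over the 7 libraries, against a median of 0.193 among 319 miRNAs.

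Pooled over genotypes, trained minus non-trained differences were between -0.077 (miR-24) and 0.14 (miR-27a) on the log2 scale, with limma adjusted p-values of 0.922 to 0.997. Pooled over training, NIPP1* minus control differences were between 0.028 (miR-24) and 0.19 (miR-23b), with a limma adjusted p of 0.997 for each. In both, and in the difference of training effects, 0 of 5 members passed the adjusted or the unadjusted threshold in limma, DESeq2 and edgeR. The unadjusted threshold in limma was passed by 3.36%, 1.26% and 7.77% of all miRNAs, and the adjusted one by 0.0% in each, while DESeq2 called 0.21%, 0.0% and 0.42%. Without trained control replicate 1 the unadjusted shares were 13.8%, 3.76% and 17.7%, and without trained NIPP1* replicate 1 they were 1.05%, 0.209% and 4.81%. The 95% intervals of the members in these comparisons lay between -0.68 and 0.87.

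The SD of each guide over the libraries was below the median of all miRNAs. Among 319 miRNAs with at least 100 mean reads, ordered from the lowest SD of log2 level over the 7 libraries, miR-24 ranked 3 (SD 0.054), miR-23a ranked 15 (0.087) and miR-27a, miR-23b and miR-27b ranked 57, 58 and 61 (0.13 each). The median SD was 0.193. Among the 50 miRNAs nearest in level the ranks were 3 for miR-24 and miR-23a, 7 for miR-27a, 8 for miR-23b and 18 for miR-27b, whose SD of 0.13 stood against a median of 0.16 there. Within groups miR-23a ranked 7, miR-24 15, miR-27a 27, miR-27b 28 and miR-23b 64. The coefficient of variation of miR-24 was 3.75%, against 0.537% from counting alone, and that of miR-27a was 9.48% against 4.45%. Counting was thus a larger part of the spread for the rarest guide than for the most abundant.

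**Figure D4:**
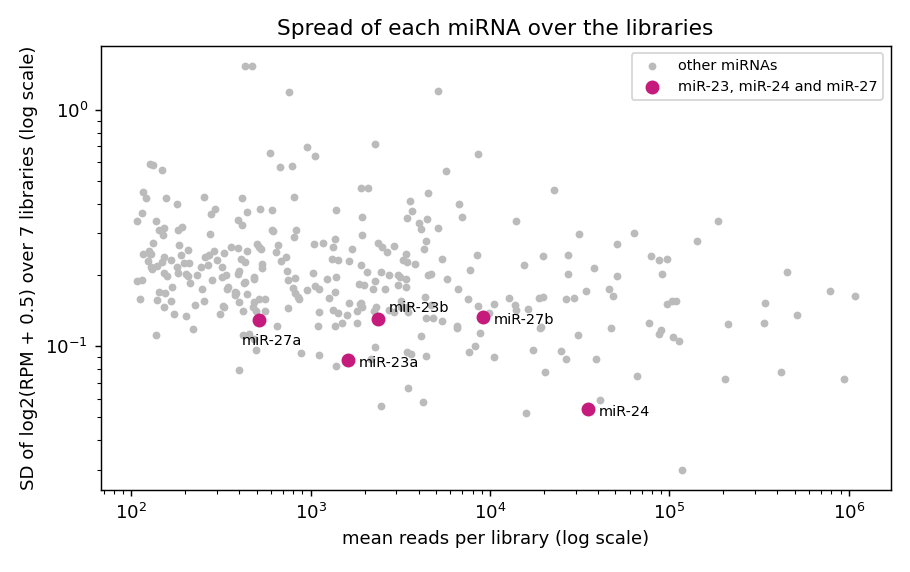
Standard deviation of the log2 level over the 7 libraries against mean reads per library (both axes logarithmic), with a point for each of 319 miRNAs and the 5 guides marked. The guides have SDs of 0.054 to 0.13, all under the median of 0.193.

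By Pearson r of log2 level over the 7 libraries, each guide was set against 314 other miRNAs, and the r values are descriptions over libraries that share their scaling. Only the 3 highest of 314 values are listed for each guide, so high values over 7 libraries were selected for and were not tested. miR-27b was most like miR-124 (r = 0.94), miR-140 (0.93) and miR-93 (0.90). miR-27a was most like miR-22 (0.88), miR-138-1* (0.86) and miR-7a-1* (0.86). miR-23b was most like miR-142-5p, miR-124 and miR-30a (0.86 each), and miR-23a was most like miR-361 (0.78), miR-138-1* (0.76) and miR-142-5p (0.76). The profile of miR-24 was most like miR-879* (0.93), miR-125b-2-3p (0.85) and miR-339-5p (0.81). miR-124, miR-138-1* and miR-142-5p each appeared for 2 members, and no miRNA appeared for miR-24 and for another member.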

How the data were processed

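Small RNA of pooled mouse hippocampus was measured in 7 libraries. The authors prepared libraries with a TruSeq small RNA kit, kept inserts of 19 to 26 nt and mapped them to mm9, and their processing notes name CASAVA 1.7.0, Bowtie and bedtools. The percent of miRNA reads per mature locus was deposited by the authors for each library. The authors also deposited 4 comparison tables, whose signal columns hold reads divided by size factors. They served for joining names and checking groups, and their fold changes, p-values and 2 columns of values per sample were not used.

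Each percent was multiplied by 10000 to RPM. Copies of a sequence were averaged, so that 806 loci gave 756 sequences. All 5 members were joined to their loci by hairpin and reads. The spacing of low values gave back whole reads (99.1% to 99.7% whole, tolerance 0.1 reads). Differences were tested with limma 3.58.1 (R 4.3.3) on log2(RPM + 0.5) with a trend, in a model of 4 groups over all 7 libraries, so that the trained libraries supply the spread of both single non-trained ones. A fold change on this scale understates that of low miRNAs. The 476 miRNAs with at least 10 mean reads were tested with Benjamini-Hochberg adjustment. edgeR 4.0.16 (quasi-likelihood) and DESeq2 1.42.0 on recovered reads, TMM and size factor scaling, pseudocounts of 0.1 and 1, other read filters, leaving out each library and the grouping of the tables were alternatives. Paralog ratios were tested by exact permutation over libraries. Tested on simulated data, in which 200 of 476 miRNAs differed by a log2 of 2, limma recovered 94% (difference of training effects) to 100% (trained NIPP1* against trained control) of them. The limma differences of the members were at most 0.36 in size, and recovery of differences that small was not simulated.

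Replicates are libraries of pooled tissue, and p-values measure the spread between these libraries, part of which may be technical. Members and marker lists were chosen with earlier results of these data known. Named miRNAs are the members, their opposite arms, the 3 miRNAs most like each member and the marker lists. The names miR-3074-5p, miR-448-3p, miR-129-2-3p, miR-136, miR-344d-3* and those of other miRNAs with the miR-24 seed are outside this rule and were added after the data were seen.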

Additional observations from a re-analysis of the deposited data

Results flagged for a closer look

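mmu-miR-27b lay on opposite sides of the non-trained library in the 2 genotypes after training. It was below the non-trained control library in 3 of 3 trained controls and above the non-trained NIPP1* library in 2 of 2 trained NIPP1* libraries. The difference of the training effects was 0.36 on the log2 scale, and it did not pass the test (limma adjusted p = 0.735). Each genotype has 1 non-trained library, and with the grouping of the deposited tables the difference was -0.18. Of all miRNAs tested, 21.8% lay on opposite sides in the same way or the reverse. Under the grouping of the deposited tables the share was 9.03%, and miR-27b itself no longer did with TMM (above in 4 of 5 trained libraries) or DESeq2 size factors (3 of 5).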

How the results depend on the processing

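No alternative brought any member past the adjusted threshold, and the smallest adjusted p over 455 values of 30 member differences was 0.201. The unadjusted one was passed by miR-27b between the trained genotypes in 3 limma alternatives: no filter on low counts, at least 100 mean reads, and without trained control replicate 1. Among all miRNAs 53 of 756, 19 of 319 and 116 of 479 passed it there. Of the 455 values 410 kept their direction and 45 reversed it. Read filters, fitting only the groups compared and leaving out a library of a group not compared cannot change a member's limma difference. Those alternatives are counted among the 410, so the count overstates how far the directions were put to a test. The grouping of the deposited tables reversed trained NIPP1* against trained control for all members: -0.10 for miR-23a, -0.21 for miR-23b, -0.23 for miR-27a, -0.27 for miR-27b and -0.025 for miR-24. It also gave 0.087 for miR-27b with training in controls. With training in NIPP1* mice it gave -0.086 for miR-23a, -0.15 for miR-23b, -0.0079 for miR-27a and -0.089 for miR-27b. For NIPP1* against control over both conditions it gave -0.023 for miR-23b, -0.084 for miR-27a and -0.18 for miR-27b. For the difference of training effects it gave -0.37 for miR-23b, -0.29 for miR-27a and -0.18 for miR-27b. Its paralog differences between the trained groups, also reversed by construction, were 0.11 (miR-23), 0.036 (miR-27) and 0.12 (sums).

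Scaling by TMM, DESeq2 size factors, the DESeq2 test and the edgeR test moved differences near 0 across it, in that order of values. miR-24 with training in controls gave 0.018, 0.021, 0.022 and 0.019, and in trained NIPP1* against trained control it gave -0.051, -0.028, -0.029 and -0.051. miR-27b in trained against non-trained mice gave 0.056, 0.066, 0.068 and 0.057. The difference of training effects for miR-23b gave -0.023, -0.0086, -0.0052 and -0.021. For miR-24 in NIPP1* against control, TMM and edgeR each gave -0.013. Without a change of direction, TMM and DESeq2 size factors took miR-23a between the trained genotypes from 0.10 to 0.027 and 0.050. With training in controls they took miR-27b from -0.18 to -0.090 and -0.087, and miR-27a from 0.054 to 0.15 under both. By TMM 2 members, in place of 4, had both trained NIPP1* libraries above the controls, an alternative chosen after seeing the data. The cause of these reversals and shifts was not tested.

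Leaving out 1 library gave, for miR-23b, -0.018 to 0.065 with training in controls, -0.037 to 0.16 in NIPP1* mice, -0.0098 to 0.090 over both and -0.054 to 0.15 for the difference of training effects. Between the trained genotypes it gave -0.026 to 0.075 for miR-24, 0.19 to 0.35 for miR-27b, 0.15 to 0.32 for miR-27a, 0.11 to 0.31 for miR-23b and 0.085 to 0.13 for miR-23a, each lowest without trained NIPP1* replicate 2 except miR-23a. It gave -0.057 to 0.045 for the difference of training effects of miR-24 and -0.040 to 0.037 for miR-27b in trained against non-trained mice. The sum ratio in trained against non-trained libraries ranged from -0.015 (without the non-trained control library) to 0.21.

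The DESeq2 test called 1 miRNA with training in controls and over both genotypes (miR-129-2-3p), 2 in NIPP1* mice (miR-136 and miR-146a), 1 between the trained genotypes (miR-344d-3*) and 2 for the difference of training effects (miR-136 and miR-344d-3*), against 0 by limma. Apart from miR-146a these were named after their values were seen. Among the non-trained libraries 14 miRNAs passed a log2 ratio of 1 with at least 10 mean reads. No paired analysis was possible because the labels number no libraries in common between groups.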
